A study of Mus musculus with 8 samples.

Results

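The genes for 9 cytokines, chemokines and growth factors that draw macrophages (MФs) into tissue or keep them alive there were examined, namely Il6, Ccl2, Csf1, Tgfb1, Cx3cl1, Il34, Mif, Cxcl1 and Cxcl10. They were taken by symbol from a table of 53700 genes, and all 9 were found. RNA came from kidney epithelial cells sorted by flow cytometry from Pkd1KO mice, a model of polycystic kidney disease, fed for 1 week at 2.8 g of food per day. Protein made up 6% of the low protein (LP) food, 18% of the normal protein (NP) food and 60% of the high protein (HP) food. There were 2 LP libraries (labelled F2 and M), 3 NP libraries (F2, KO7 and M) and 3 HP libraries (F1, F2 and M), each from a pool of 2 to 3 mice. The comparison asks whether tubule cells make more MФ-attracting signals early in a dietary protein load. All animals carried floxed Pkd1 and a tamoxifen-inducible CAGG-CreER, and got 3 doses of tamoxifen at 5 to 6 weeks of age, 2 weeks before the diet began. That Cre is systemic, so Pkd1 was deleted in MФs and other cells as well as in tubules, and no library from mice with intact Pkd1 was analysed here. The diets also differed in sucrose, cellulose and calcium salts. Corn starch was equal in the LP and NP food and absent from the HP food, which alone held maltodextrin. These differences cannot be told apart from protein in these libraries.

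Injured or cystic tubule cells can call in immune cells. CCL2 and CX3CL1 attract monocytes through the receptors CCR2 and CX3CR1, while CSF1 and IL-34 both bind CSF1R and sustain MФs once they have arrived. MIF signals through CD74 and holds MФs in place, CXCL1 and CXCL10 attract mainly neutrophils and activated T cells, IL-6 drives STAT3 signalling, and TGF-β1 promotes fibrosis and steers MФ state.

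No gene of the group passed the test between any 2 diets after 1 week. In limma fits with Benjamini-Hochberg adjustment, 0 of the 9 were called at an adjusted p of 0.05 for HP against NP, HP against LP or LP against NP. Of the 9, 7 were in the fit over 13566 genes, where 0.0221%, 0.0147% and 0.0147% of all tested genes were called. Ccl2 and Il6 came from a fit with no filter over 32424 genes, where 1, 8 and 8 genes were called. At an unadjusted p under 0.05, Tgfb1 alone was reached for HP against NP, where 8.88% of tested genes were, and none of the 9 for HP against LP (12.4%) or LP against NP (10.4%). Tgfb1 was also the gene with every HP library above every NP library. The difference in the group that passed a test lay between library labels instead, with Mif higher in the libraries lettered F than in those lettered M. That comparison was made after the values had been seen, and 3.05% of genes were called in it. The letters were not balanced over the diets, so diet and letter are partly mixed in the diet comparisons.

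The libraries held an estimated 26000000 to 34700000 fragments. Levels are in FPKM, the number of sequenced fragments set relative to transcript length and to the depth of the library. Markers of the proximal tubule summed to 5599 to 7302 FPKM per library, which fits the epithelial label, but markers of other cells were present too. The 20 MФ markers, of which none was at 0 in any library, summed to 204 to 209 FPKM in LP, 103 to 214 FPKM in NP and 184 to 273 FPKM in HP. The 12 endothelial markers summed to 94.8 to 107 FPKM in LP, 89.3 to 115 FPKM in NP and 107 to 213 FPKM in HP. MФs and endothelial cells make several of these cytokines themselves, so the transcripts cannot be assigned to tubule cells alone, and their part in each level was not tested. In bulk RNA, fewer cells of a type and less RNA per cell cannot be told apart. The LP M library stood apart in 2 ways. It held both Xist (16.3 FPKM), which is made from the inactive X chromosome, and Y-linked Ddx3y (9.74 FPKM), and the T cell gene Cd3g was at 11.3 FPKM there, against 0.40 to 1.31 FPKM in the other 7 libraries. Of other T cell genes, Cd3e (1.03 FPKM) and Cd4 (1.13 FPKM) were also highest in LP M. Cd8a was highest in LP F2, at 0.64 FPKM, against 0.20 FPKM in LP M. NP KO7, whose label has no letter, had Ddx3y at 7.99 FPKM and Xist at 0.78 FPKM. Pkd1 itself was at 1.38 to 1.82 FPKM in LP, 1.96 to 4.11 FPKM in NP and 2.11 to 2.84 FPKM in HP.

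The levels of the group covered more than 4 orders on a scale set per transcript length. Mif averaged 1232 ± 276 FPKM over the 8 libraries (SD) and ranked 58 among all 53700 genes. Cx3cl1 followed at 7.70 ± 0.882 FPKM, Il34 at 7.44 ± 2.54, Tgfb1 at 3.74 ± 0.989, Cxcl10 at 2.73 ± 0.955, Csf1 at 2.00 ± 0.680 and Cxcl1 at 1.61 ± 1.54 FPKM. Ccl2, at 0.570 ± 0.216 FPKM, and Il6, at 0.0688 ± 0.0651 FPKM, stayed under 1 FPKM in every library. Of the neighbours in this order, Mif and Cx3cl1 had ranges that did not meet, and the ranges of every other neighbouring pair overlapped. Even so, Il34 exceeded Tgfb1 and Ccl2 exceeded Il6 in all 8 libraries.

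**Figure D1:**
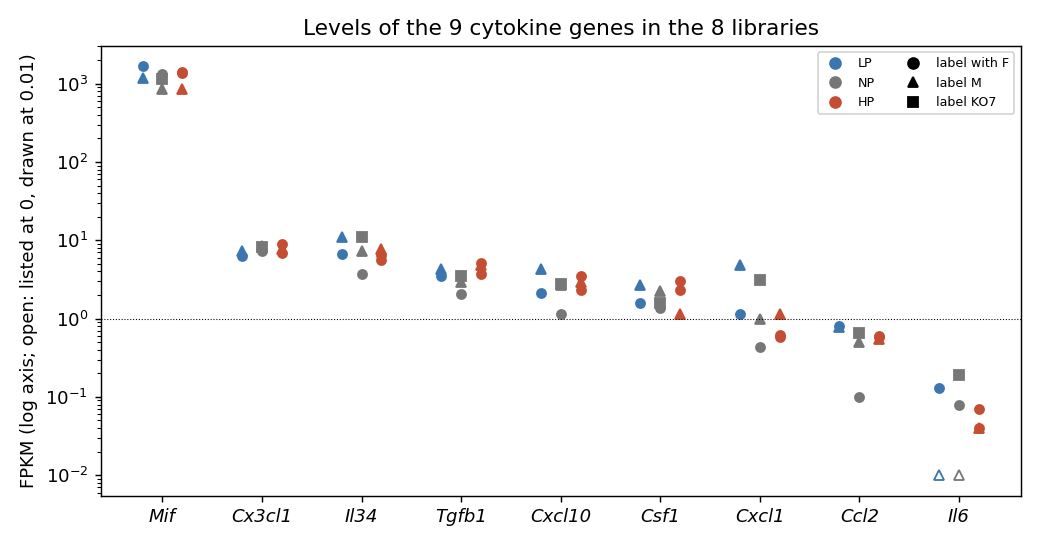
FPKM of the 9 genes (log axis) in each library, coloured by diet with the marker giving the letter of the library label, and the dotted line at 1 FPKM. Mif lies between 862 and 1664 FPKM while the other 8 genes stay at or below 11.03 FPKM, and Il6 is listed at 0 in LP M and NP M.

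Several of these genes are known targets of NF-κB, the transcription factor of inflammatory signalling, so the 250 bases before the RefSeq start site were searched on both strands for its consensus motif. RefSeq sequence of build GRCm38.p6 was at hand for 7 of the 9, all but Ccl2 and Il34. The motif was found in 4 of these 7, against 2.13% of 32851 mouse promoters. They are printed 5′ to 3′ on the gene's strand, with the match in capitals, to show where the motif lies in each.
Il6, chr5:30012864-30013113, plus strand: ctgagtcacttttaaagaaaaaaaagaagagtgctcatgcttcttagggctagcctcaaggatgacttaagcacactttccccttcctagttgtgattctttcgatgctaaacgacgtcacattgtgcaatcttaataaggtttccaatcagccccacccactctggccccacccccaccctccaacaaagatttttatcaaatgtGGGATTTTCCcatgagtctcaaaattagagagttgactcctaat
Cxcl1, chr5:90890995-90891244, plus strand: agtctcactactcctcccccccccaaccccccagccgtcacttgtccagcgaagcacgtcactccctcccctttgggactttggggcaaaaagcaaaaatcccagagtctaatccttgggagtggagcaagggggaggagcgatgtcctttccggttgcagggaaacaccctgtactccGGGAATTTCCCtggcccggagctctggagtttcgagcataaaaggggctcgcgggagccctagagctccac
Cxcl10, chr5:92348890-92349139, minus strand: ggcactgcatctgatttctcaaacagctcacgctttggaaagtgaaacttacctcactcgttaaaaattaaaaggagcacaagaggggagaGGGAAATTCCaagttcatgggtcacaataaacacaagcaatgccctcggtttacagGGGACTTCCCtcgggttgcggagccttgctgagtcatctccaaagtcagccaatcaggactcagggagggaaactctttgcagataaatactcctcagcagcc
Csf1, chr3:107760470-107760719, minus strand: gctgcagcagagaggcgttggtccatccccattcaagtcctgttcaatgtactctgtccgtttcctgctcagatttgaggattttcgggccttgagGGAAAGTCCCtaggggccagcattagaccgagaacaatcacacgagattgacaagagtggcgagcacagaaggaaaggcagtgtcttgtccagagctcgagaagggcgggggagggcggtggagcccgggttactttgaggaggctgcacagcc
The match began 44 bases before the start in Il6 and 154 bases before it in Csf1. Cxcl10 held 2 matches, beginning 159 and 103 bases before the start. In Cxcl1 the matches on the 2 strands overlapped, beginning 71 and 70 bases before the start. The interferon-response core GAAANNGAAA, read on both strands, occurred in Cxcl10 alone of the 7 and in 2.98% of all promoters. A match describes the letters of the window and is no measure of binding.

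Ccl2 (ENSMUSG00000035385.6, chromosome 11), the main attractant of blood monocytes, was low on every diet. It stood at 0.80 and 0.77 FPKM in LP F2 and M, at 0.10, 0.65 and 0.51 FPKM in NP F2, KO7 and M, and at 0.58, 0.60 and 0.55 FPKM in HP F1, F2 and M. The NP F2 value stood for about 2 fragments, with an exact Poisson 95% interval of 0.242 to 7.22 fragments, and the other libraries for about 10 to 17 fragments. Both LP libraries lay above all HP and all NP libraries, as in 20.3% and 12.7% of tested genes, while HP and NP overlapped. Intervals for counting error alone ran from 0.309 to 0.992 FPKM in HP F1 and from 0.466 to 1.28 FPKM in LP F2, so the order of these diets was not resolvable at this depth. In the limma fit with no filter on low values, the log2 fold change was 0.17 for HP against NP (95% interval -0.22 to 0.57, adjusted p = 0.871), -0.18 for HP against LP (-0.62 to 0.26, adjusted p = 0.808) and 0.35 for LP against NP (-0.09 to 0.79, adjusted p = 0.700).

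Cx3cl1 (ENSMUSG00000031778.14, chromosome 8), the membrane-bound chemokine fractalkine, was the steadiest of the 9. Its levels were 6.33 and 7.38 FPKM in LP F2 and M, 7.33, 8.32 and 8.51 FPKM in NP F2, KO7 and M, and 8.99, 6.92 and 7.81 FPKM in HP F1, F2 and M. The highest library exceeded the lowest by 1.42 times, and all 3 diets overlapped. The log2 fold change was -0.028 for HP against NP (SE 0.15, 95% interval -0.36 to 0.31, limma adjusted p = 0.976), 0.18 for HP against LP (-0.20 to 0.55) and -0.21 for LP against NP (-0.58 to 0.17). Adam10 and Adam17, the proteases that shed CX3CL1 from the membrane, were at 10.4 to 12.1 and 5.75 to 5.96 FPKM in LP, at 7.92 to 12.3 and 4.66 to 7.62 FPKM in NP, and at 8.47 to 10.3 and 5.33 to 6.82 FPKM in HP.

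Csf1 (ENSMUSG00000014599.11, chromosome 3), the growth factor that MФs need to survive, varied as much within a diet as between diets. LP F2 and M had 1.60 and 2.67 FPKM, and NP F2, KO7 and M had 1.35, 1.56 and 2.28 FPKM. HP F1 was the highest library at 3.04 FPKM and HP M the lowest at 1.14 FPKM, with HP F2 at 2.34 FPKM. The log2 fold change for HP against NP was 0.18 (SE 0.27, 95% interval -0.42 to 0.79, limma adjusted p = 0.891), and without HP F1 it was -0.015. It was -0.0099 for HP against LP (-0.69 to 0.67) and 0.19 for LP against NP (-0.49 to 0.87).

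Il34 (ENSMUSG00000031750.16, chromosome 8), the second ligand of CSF1R, spread over 3.01 times. LP F2 and M had 6.59 and 11.01 FPKM, NP F2, KO7 and M had 3.66, 11.03 and 7.28 FPKM, and HP F1, F2 and M had 6.44, 5.63 and 7.84 FPKM, the narrowest range of the 3 diets. The lowest and the highest library were thus both NP, and all diets overlapped. The log2 fold change was -0.030 for HP against NP (SE 0.33, 95% interval -0.77 to 0.71, limma adjusted p = 0.986), and the value was 0.29 without NP KO7 and -0.40 without NP F2. For HP against LP it was -0.33 (-1.16 to 0.49) and, without LP M, -0.0013, and for LP against NP 0.30 (-0.52 to 1.13). Csf1r, the receptor gene that Csf1 and Il34 share, was at 10.4 to 13.4 FPKM in LP, 8.25 to 11.1 FPKM in NP and 10.5 to 11.3 FPKM in HP.

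Mif (ENSMUSG00000033307.8, chromosome 10), which encodes macrophage migration inhibitory factor, was by far the most abundant. It measured 1664 and 1181 FPKM in LP F2 and M, 1329, 1152 and 862 FPKM in NP F2, KO7 and M, and 1419, 1383 and 868 FPKM in HP F1, F2 and M. Within each diet the library lettered M was the lowest, and the diets overlapped. The log2 fold change was 0.12 for HP against NP (SE 0.25, 95% interval -0.44 to 0.69, limma adjusted p = 0.925), -0.23 for HP against LP (-0.86 to 0.40) and 0.35 for LP against NP (-0.28 to 0.98). Mif has near-identical copies in the mouse genome, and the 2 annotated Mif pseudogenes were listed at 0 in every library. How reads were split between such copies was not tested, so the level of Mif is uncertain. Its relative Ddt, which encodes a second MIF-like protein, was at 272 to 282 FPKM in LP, 227 to 308 FPKM in NP and 224 to 256 FPKM in HP.

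Cxcl1 (ENSMUSG00000029380.12, chromosome 5), a neutrophil attractant, had the widest ratio of highest to lowest library of the 7 genes that passed the filter. LP F2 and M had 1.16 and 4.82 FPKM, NP F2, KO7 and M had 0.44, 3.09 and 1.00 FPKM, and HP F1, F2 and M had 0.62, 0.58 and 1.14 FPKM. All HP libraries lay below both LP libraries, by 0.02 FPKM at the nearest, as did those of 20.3% of tested genes, and the high values belonged to LP M and NP KO7. The log2 fold change for HP against LP was -1.01 (SE 0.49, 95% interval -2.12 to 0.10, limma adjusted p = 0.447). Without LP M that value was -0.29. It was -0.37 for HP against NP (-1.36 to 0.63, adjusted p = 0.856) and 0.64 for LP against NP (-0.47 to 1.75, adjusted p = 0.660), and without LP M the last value was -0.075. Neutrophil transcripts did not follow the same libraries throughout, with S100a8 at 23.9 FPKM in NP KO7, 21.2 FPKM in HP F2 and 3.68 FPKM in LP M.

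Cxcl10 (ENSMUSG00000034855.14, chromosome 5), an interferon-induced T cell attractant, was at 2.14 and 4.35 FPKM in LP F2 and M, at 1.13, 2.78 and 2.67 FPKM in NP F2, KO7 and M, and at 3.54, 2.34 and 2.91 FPKM in HP F1, F2 and M. LP M, the library with the most Cd3g, was the highest and NP F2 the lowest. The diets overlapped, and the log2 fold change was 0.33 for HP against NP (SE 0.28, 95% interval -0.31 to 0.98, limma adjusted p = 0.790), -0.072 for HP against LP (-0.79 to 0.64) and 0.41 for LP against NP (-0.31 to 1.12). Single libraries carried both positive values, since HP against NP was 0.066 without NP F2 and LP against NP was 0.022 without LP M. Of the interferon response list, 12 of 14 genes were tested, 0 were called, and 11 lay above 0 for HP against NP, with a median of 0.26 beside -0.05 for all tested genes. The list summed to 66.5, 50.1 and 36.3 FPKM in HP F1, F2 and M, against 38.6 to 42.3 FPKM in NP, so HP M lay below all NP libraries. Among its most abundant genes, Irf9, a DNA-binding factor of interferon signalling, was at 5.97 to 8.28 FPKM in LP, 5.49 to 7.94 FPKM in NP and 5.04 to 8.82 FPKM in HP.

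Il6 (ENSMUSG00000025746.12, chromosome 5), the inflammatory cytokine, was near the limit of detection. It was listed at 0.13 and 0 FPKM in LP F2 and M, at 0.08, 0.19 and 0 FPKM in NP F2, KO7 and M, and at 0.04, 0.07 and 0.04 FPKM in HP F1, F2 and M. The highest value, in NP KO7, stood for 2.43 to 10.8 fragments depending on which coding transcript was taken. A difference between diets was not detectable at this depth, and in the fit with no filter the log2 fold change for HP against NP was -0.050 (95% interval -0.22 to 0.11, limma adjusted p = 0.911). Il6ra, its own receptor chain, was at 0.29 to 0.45 FPKM in LP, 0.37 to 0.58 FPKM in NP and 0.36 to 0.62 FPKM in HP. The shared chain Il6st was at 5.45 to 7.88 FPKM in LP, 8.46 to 12.1 FPKM in NP and 7.23 to 10.6 FPKM in HP. Of 10 genes on the IL6-STAT3 list, 7 were tested and 0 were called for HP against NP, with 5 above 0.

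Tgfb1 (ENSMUSG00000002603.16, chromosome 7), the profibrotic cytokine, had the lowest adjusted p of the 9 genes for HP against NP. HP F1, F2 and M had 3.73, 5.07 and 4.80 FPKM, against 2.05, 3.52 and 2.93 FPKM in NP F2, KO7 and M. LP F2 and M had 3.52 and 4.33 FPKM. Each HP library exceeded each NP library, which held for 3.66% of tested genes, whereas HP and LP overlapped. The mean was 3.93 ± 0.573 FPKM in LP (SD, n = 2), 2.83 ± 0.740 FPKM in NP (n = 3) and 4.53 ± 0.709 FPKM in HP (n = 3). The log2 fold change for HP against NP was 0.54 (SE 0.19, 95% interval 0.10 to 0.98, limma adjusted p = 0.484), so it was not called. Across 21 other settings and left-out libraries it stayed between 0.38 and 0.78 and its unadjusted p was under 0.05 in 18, but its adjusted p, from 0.126 to 1.00, never passed. HP against LP gave 0.16 (-0.33 to 0.65, adjusted p = 0.798) and LP against NP gave 0.38 (-0.12 to 0.87, adjusted p = 0.562). Set against the 5 NP and LP libraries together, the 3 HP libraries averaged 0.39 higher on the log2(FPKM + 1) scale, with p = 0.0893 in a two-sided exact permutation test of 56 arrangements. Without LP M the difference was 0.48 and the exact permutation p was 0.0286, the smallest that 35 arrangements allow, while leaving out each of the other 7 libraries gave exact permutation p-values of 0.0952 to 0.286. The same test gave p = 0.268 for Cxcl1 (difference -0.62) and exact permutation p-values of 0.589 to 0.982 for the other 7 genes, with no adjustment for the 9 genes tested.

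**Figure D2:**
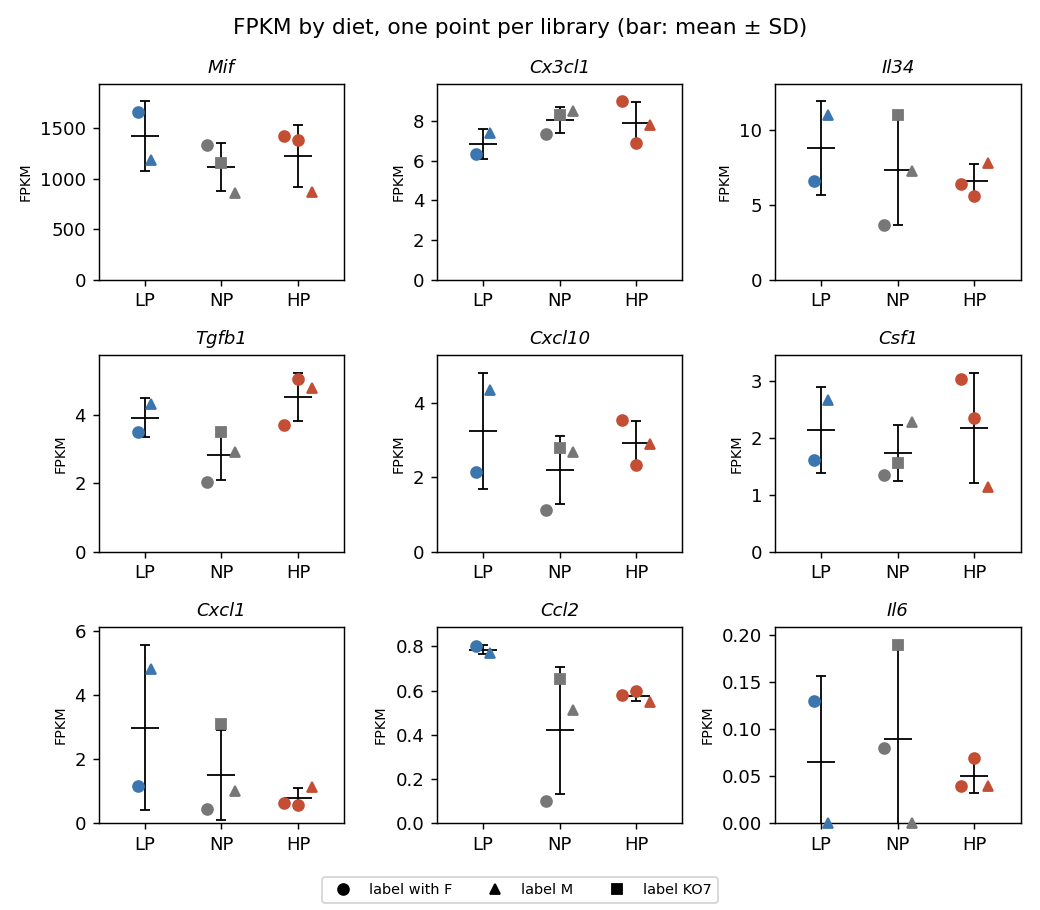
FPKM of each gene by diet, from low to high protein, with 1 point per library and the diet mean ± SD as a bar, cut at 0 where it would run below. For Tgfb1 the 3 HP points (3.73 to 5.07 FPKM) lie above the 3 NP points (2.05 to 3.52 FPKM), and for the other 8 genes HP and NP overlap.

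**Figure D3:**
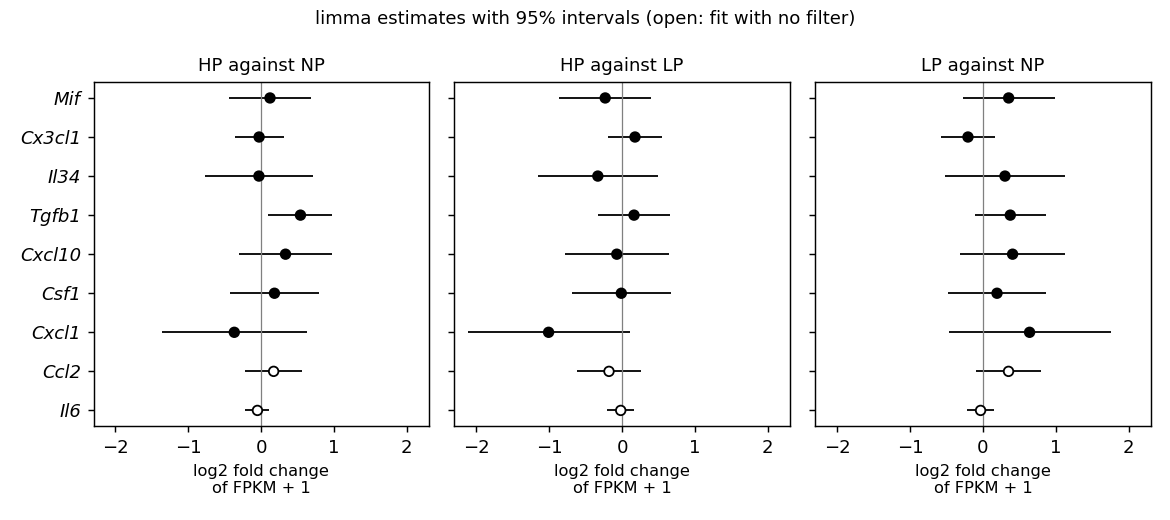
limma log2 fold changes of FPKM + 1 with 95% intervals for the 9 genes in the 3 diet comparisons, open points being Ccl2 and Il6 from the fit with no filter. The interval of Tgfb1 for HP against NP (0.10 to 0.98) is the one that does not cross 0.

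MФ marker levels ran alongside Tgfb1 in most libraries. All 18 tested MФ markers lay above 0 for HP against NP, with a median log2 fold change of 0.43 beside -0.05 for all tested genes, and 0 were called. Against LP, 15 of 18 lay above 0 with a median of 0.21, beside -0.04 for all genes. For LP against NP, 17 of 18 lay above 0 with a median of 0.27, beside -0.02 for all genes, so these markers were low in NP against both other diets. The 2 libraries with the most Tgfb1, HP F2 and HP M, had the highest MФ marker sums at 261 and 273 FPKM, and NP F2 had the least Tgfb1 and the lowest sum at 103 FPKM. HP F1 differed, with Tgfb1 at 3.73 FPKM above all NP libraries and a sum of 184 FPKM, below the 191 FPKM of NP M and the 214 FPKM of NP KO7. The complement gene C1qb, a marker of resident MФs, was the third most like Tgfb1 of all tested genes. Adgre1 and Itgam, which encode the F4/80 and CD11b antigens stained in the sort, were at 0.80 to 0.90 and 0.91 to 1.19 FPKM in LP, at 0.46 to 1.26 and 0.59 to 1.28 FPKM in NP, and at 1.22 to 1.40 and 1.35 to 1.60 FPKM in HP. All 12 endothelial markers also lay above 0 for HP against NP, with a median of 0.56 and 0 called. Their sums were 213 and 184 FPKM in HP F1 and F2, while HP M, at 107 FPKM, lay below the 115 FPKM of NP KO7. The 5 tested of 8 fibroblast and pericyte markers lay above 0 for HP against NP as well (median 0.36), as did all 6 thick ascending limb markers (median 0.53). The fibroblast and pericyte sums were 15.7 to 17.4 FPKM in LP, 13.1 to 18.2 FPKM in NP and 16.3 to 27.9 FPKM in HP. Of the 10 proximal tubule markers, 3 lay above 0 and 7 below (median -0.32), and 0 genes of these lists were called. For HP against LP, 5 of the 6 thick ascending limb markers lay above 0 (median 1.45), with sums of 648 to 704 FPKM in LP and 1050 to 2206 FPKM in HP. All 12 distal tubule and collecting duct markers lay above 0 there (median 0.68, 0 called), against 5 of 12 for HP against NP (median -0.17). The part of these cells in the Tgfb1 values was not tested. Ccl2 was lowest in NP F2 as well, but its highest values, in LP, went with middling MФ sums, and Cx3cl1 was highest in HP F1.

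**Figure D4:**
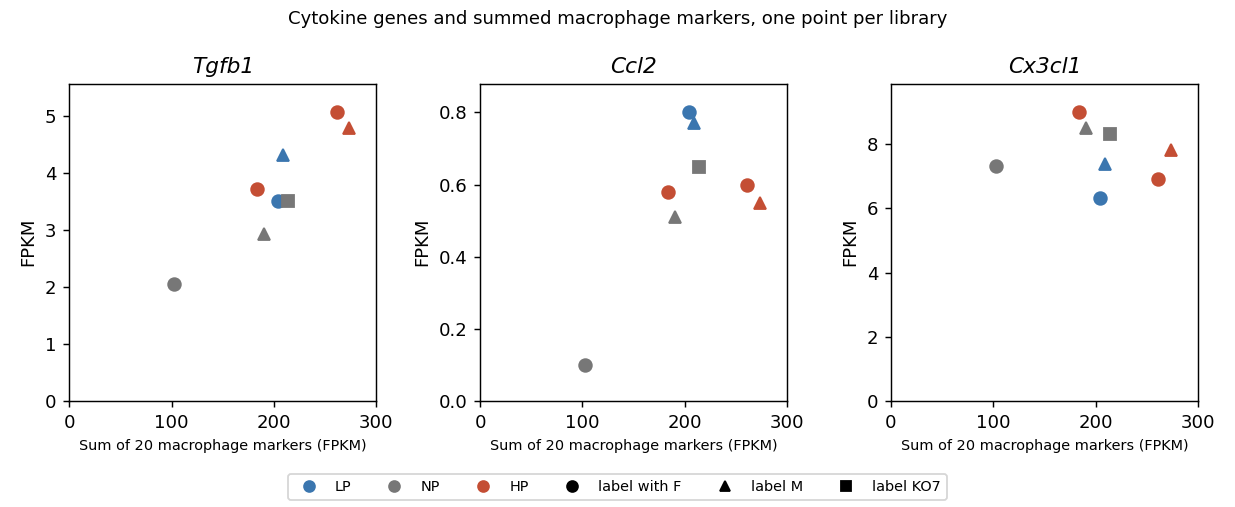
Tgfb1, Ccl2 and Cx3cl1 (FPKM) against the summed FPKM of the 20 MФ markers, 1 point per library, coloured by diet. NP F2, at a sum of 103 FPKM, has the lowest Tgfb1 and Ccl2, while its Cx3cl1 of 7.33 FPKM lies within the range of the others.

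Single libraries weighed on the group as a whole. NP F2 was the lowest of all 8 libraries for 5 of the 9 genes (Ccl2, Tgfb1, Il34, Cxcl1 and Cxcl10), as it was for 10.8% of tested genes. LP M and NP KO7 were the 2 highest libraries for Il34 and for Cxcl1, a pattern found in 4.37% of tested genes. The 14 immediate early genes, which cells switch on within minutes of a stimulus, also summed highest in these libraries, at 482 FPKM in LP M and 477 FPKM in NP KO7. The other 6 were at 239 to 435 FPKM. The 435 FPKM was in NP F2, the lowest library for Il34 and Cxcl1. The part of the immediate early genes in the pattern was not tested. For HP against NP, Ccl2 was at 0.17 with NP F2 and at -0.0018 without it, and Tgfb1 was at 0.38 without it.

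The letters of the labels separated Mif and Il34, a comparison made after their values had been seen. In the 4 libraries lettered F, Xist was at 23.4 to 45.3 FPKM and Ddx3y at 0.21 to 0.77 FPKM. NP M and HP M had Xist at 0.81 and 1.09 FPKM and Ddx3y at 12.4 and 11.7 FPKM. The letters thus went with these sex-linked genes there, but LP M held both, so the letters are taken as labels. The part of sex in the differences between letters was not tested. Letters were not balanced over the diets. HP held F1, F2 and M, and LP held F2 and M. NP held F2, M and the unlettered KO7, which had Ddx3y at 7.99 FPKM and Xist at 0.78 FPKM. Letter and diet thus cannot be fully told apart in the diet comparisons. Mif was at 1329 to 1664 FPKM in the 4 libraries lettered F and at 862 to 1181 FPKM in the 3 lettered M, with no overlap, as for 4.11% of tested genes. With diet as a term and NP KO7 left out, Mif was higher in F by 0.61 on the log2 scale (SE 0.0915, 95% interval 0.40 to 0.82, limma adjusted p = 0.00953), in a fit where 3.05% of 13485 genes were called and 1.51% were higher in F. Without LP M as well, the difference was 0.66 (adjusted p = 0.0110). Il34 ran the other way, at 3.66 to 6.59 FPKM in F and 7.28 to 11.01 FPKM in M, an order found in 5.09% of genes. Its difference was -0.58 (95% interval -0.93 to -0.23, limma adjusted p = 0.102), which did not pass. Cxcl1 gave -0.74 (adjusted p = 0.156) and Cxcl10 gave -0.47 (adjusted p = 0.376) in the same limma fit.

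**Figure D5:**
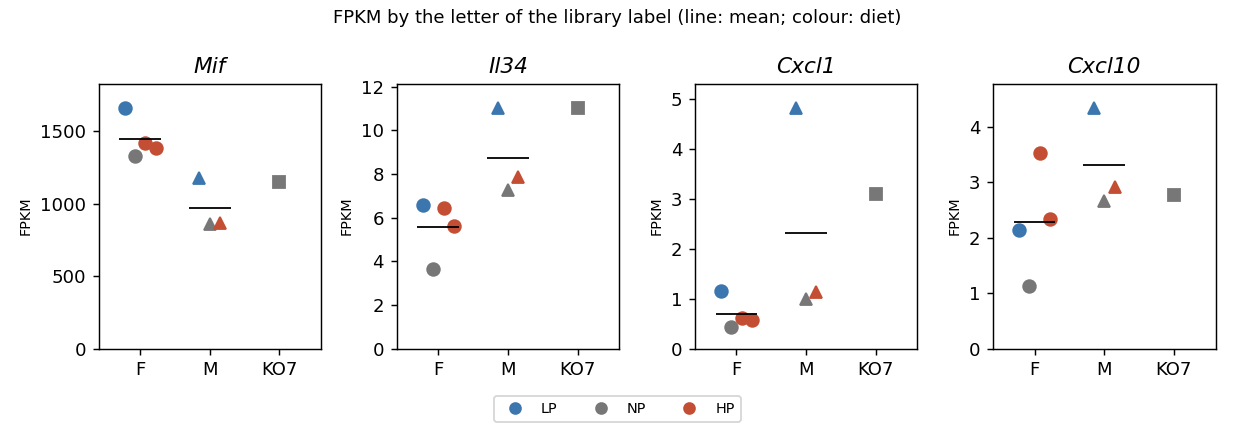
FPKM of Mif, Il34, Cxcl1 and Cxcl10 by the letter of the library label, with the mean as a line and colour for diet. All F libraries lie above all M libraries for Mif and below them for Il34, and NP KO7, which carries no letter, is drawn apart.

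Of the 14 receptor genes for these ligands, 8 were tested and 0 were called in any diet comparison. Cd74, which encodes the MIF receptor chain and the invariant chain of antigen-presenting cells, was at 96.6 and 69.1 FPKM in LP F2 and M, at 38.3, 46.3 and 45.2 FPKM in NP F2, KO7 and M, and at 97.1, 103 and 66.4 FPKM in HP F1, F2 and M. Every HP and every LP library exceeded every NP library, orders found in 3.66% and 12.7% of tested genes. The log2 fold change was 1.00 for HP against NP (SE 0.20, limma adjusted p = 0.186) and 0.91 for LP against NP (SE 0.22, adjusted p = 0.400). Cx3cr1 was at 3.61 to 3.67 FPKM in LP, 1.79 to 4.72 FPKM in NP and 3.24 to 7.20 FPKM in HP, and Ccr2, Cxcr2 and Cxcr3 stayed at or below 0.36 FPKM. Tgfbr2, which binds TGF-β1, was at 4.59 to 6.44 FPKM in LP, 8.32 to 9.61 FPKM in NP and 6.50 to 9.11 FPKM in HP.

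Genes that release or answer these signals gave no call either. Of the release and activation list, 11 of 12 were tested, and Itgav, an integrin chain that helps free TGF-β1 from its latent form, was at 56.1 to 62.1 FPKM in LP, 43.8 to 67.2 FPKM in NP and 44.2 to 57.9 FPKM in HP. Of the TGF-β response list, 9 of 10 were tested, with 4 above 0 and 5 below for HP against NP and a median of -0.10. Ccn2, a matrix-cell growth factor induced by TGF-β, was at 17.8, 19.0 and 10.2 FPKM in HP F1, F2 and M, against 9.20, 12.7 and 10.2 FPKM in NP F2, KO7 and M (log2 fold change 0.48, limma adjusted p = 0.599). Of the NF-κB factors and feedback genes, 13 of 14 were tested and 9 lay above 0 for HP against NP, with a median of 0.12. Nfkbia, the inhibitor that NF-κB induces, was at 21.2 to 26.5 FPKM in LP, 19.4 to 28.9 FPKM in NP and 23.8 to 24.7 FPKM in HP. Among 29 other chemoattractants and cytokines, 18 were tested and 0 were called. Spp1, which encodes osteopontin, a MФ attractant of injured tubules, was the most abundant of them, at 992 and 519 FPKM in LP F2 and M, at 645, 475 and 394 FPKM in NP F2, KO7 and M, and at 1282, 1276 and 445 FPKM in HP F1, F2 and M. HP M lay within the NP range, and the log2 fold change for HP against NP was 0.86 (limma adjusted p = 0.606). All libraries lettered F (645 to 1282 FPKM) lay above all lettered M (394 to 519 FPKM), an order found in 4.11% of tested genes. The part of the letter in this fold change was not tested.

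Within the group, the pair with the closest course over the 8 libraries was Il34 and Cxcl1 (Pearson r = 0.89 of log2(FPKM + 1)), followed by Il34 and Cxcl10 (0.80). Among all tested genes, the course of Csf1 was most like that of Irf9 (r = 0.983), with Zfp3 also among the nearest (0.962). Tgfb1 was most like Tmem173 (0.943), Zfp991 (0.936) and C1qb (0.933). The nearest to Cx3cl1 were Fam219a (0.983), Tnpo2 (0.980) and Oxsr1 (0.973), and to Il34 were Msrb1 (0.990), Rpl3l (0.975) and Derl2 (0.969). Mif was nearest to Ccdc198 (0.980), Tmem33 (0.977) and Mrpl21 (0.975). Cxcl1 was nearest to Stip1 (0.970), Derl2 (0.954) and the noncoding AC133523.4 (0.954), and Cxcl10 to Skil (0.944), Scrn3 (0.936) and Sipa1 (0.936). Derl2 was thus near both Il34 and Cxcl1, with its 2 highest values in LP M (44.6 FPKM) and NP KO7 (43.4 FPKM). These coefficients are the highest of 13566 over 8 libraries that share depth and cell makeup, and are given as a description.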

How the data were processed

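Gene expression was measured by RNA sequencing in 8 libraries of sorted kidney epithelial cells. Reads were trimmed by the authors (Trim Galore 0.6.7), who deposited FPKM per gene from RSEM 1.3.3 against GENCODE M26 (GRCm39). The library kit is named differently in the sources, so strand use is uncertain. The table holds 53700 genes, of which 52093 identifiers matched a symbol in GENCODE M21. Its values are not counts. Fragments per library were estimated from the steps between low values, and 80.9 to 86.5% of those used lay within 0.15 of a whole fragment. Intervals on fragments cover counting error only.

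log2(FPKM + 1) was fitted with limma 3.58.1 (R 4.3.3) with a variance trend and a mean per diet over all 8 libraries, on genes that reached 1 FPKM in 2 or more libraries (7 of the 9 genes). Ccl2 and Il6, below this, were read from a fit with no filter. P-values were adjusted over all genes by Benjamini-Hochberg at 0.05. Pools of one diet count as replicates. Fold changes on this scale understate those of low genes. Exact permutation tests went through every arrangement of the libraries, and the Poisson intervals used scipy 1.17.1. The 9 genes and all lists were chosen with earlier results of these data known. All 9 are named, with up to 4 most abundant genes of other lists and the 3 genes most like each tested member, except for genes not reported here. Adam10, Adam17, Cx3cr1, Ccr2, Cxcr2, Cxcr3, Il6ra, Adgre1, Itgam, S100a8, Cd3g, Cd3e, Cd4 and Cd8a were named beyond this, after their values were seen. Libraries sharing the label F2 or M deviated together (correlations of 0.14 to 0.35 over 6 pairs). No label states a pairing, and libraries of unlike labels were not compared in this way, so pairing is not established. A fit with these labels as a block (the replicate block), which drops HP F1 and NP KO7, is given as an alternative only. Other alternatives were pseudocounts, filters, scalings, no trend, array weights, only the 2 diets compared, each library left out in turn, and the letter of the label as a term (NP KO7, which has none, being dropped). Promoters came from RefSeq (GRCm38.p6), so the coordinates are not those of the deposited build.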

Additional observations from a re-analysis of the deposited data

How the results depend on the processing

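None of the 9 genes was called in any diet comparison under any alternative, and the replicate block changed none of these calls. Of 576 alternative log2 fold changes, 531 kept their direction and 45 turned it, the largest of these reaching 0.38 in size. Of 90 alternative permutation values, 80 kept direction and side, 9 turned and 1, Tgfb1 without LP M, passed. The cause of each shift was not tested. Genes called for HP against NP numbered 3, and were 5 with a pseudocount of 0.1, 1 with no filter, 6 with a filter at 5 FPKM, median-of-ratios scaling, quantile normalization or only the 2 diets compared, 5 with sums set equal without haemoglobin and mitochondrial genes, 12 with array weights, 8 with the replicate block, 44 with the letter as covariate and without NP KO7, which carries no letter, and 1 to 38 (without HP F1 and without HP M) leaving out a library. For HP against LP the 2 calls became 1 with a pseudocount of 0.1, median-of-ratios or quantile scaling, 8 with no filter or only the 2 diets, 0 with a filter at 5 FPKM, 9 with equal sums, 10 with equal sums without haemoglobin and mitochondrial genes, 36 with array weights, 5 with the replicate block, 189 with the letter and without NP KO7, and 0 to 56 (without LP M and without HP M) leaving out a library. For LP against NP the 2 calls became 0 with a pseudocount of 0.1, a filter at 5 FPKM or only the 2 diets, 8 with no filter, 1 with median-of-ratios or quantile scaling, 17 with the letter and without NP KO7, and 0 to 4 leaving out a library. Log2 values that turned under the replicate block were 0.022 (Il6), -0.054 (Csf1), 0.30 (Il34) and 0.12 (Cxcl1) for HP against NP and 0.033 (Il6) for LP against NP. With the letter as covariate and without NP KO7, HP against NP gave 0.013 for Cx3cl1, 0.38 for Il34 and 0.18 for Cxcl1, HP against LP gave 0.0062 for Cxcl10, and LP against NP gave 0.033 for Il6. Under median-of-ratios scaling, HP against NP gave 0.042 for Cx3cl1 and 0.039 for Il34, HP against LP gave 0.020 for Csf1, and Mif in HP against the other diets gave 0.048. Quantile normalization gave 0.038 for Cx3cl1 and 0.034 for Il34. Equal sums without haemoglobin and mitochondrial genes gave 0.0044 and 0.0039 for these, and for HP against LP 0.092 for Csf1 and 0.043 for Cxcl10. Equal sums gave Csf1 0.041 and array weights 0.012 for HP against LP, and array weights gave Il34 0.21 for HP against NP. Leaving out each library gave, for HP against NP, -0.11 to 0.015 (Il6), -0.0018 to 0.29 (Ccl2), -0.015 to 0.44 (Csf1), -0.11 to 0.054 (Cx3cl1), -0.40 to 0.29 (Il34), -0.051 to 0.35 (Mif) and -0.70 to 0.055 (Cxcl1). For HP against LP it gave -0.11 to 0.070 (Il6), -0.26 to 0.25 (Csf1), -0.48 to 0.017 (Mif) and -0.46 to 0.31 (Cxcl10), and for LP against NP -0.12 to 0.056 (Il6), -0.056 to 0.44 (Csf1), -0.064 to 0.63 (Il34) and -0.075 to 1.35 (Cxcl1). For HP against both other diets it gave -0.090 to 0.087 (Ccl2), -0.093 to 0.37 (Csf1), -0.031 to 0.14 (Cx3cl1), -0.14 to 0.21 (Mif) and -0.0029 to 0.33 (Cxcl10). With 2 or 3 pools per diet the intervals were wide, and Il6 and Ccl2 were limited by depth.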
